A study of Mus musculus with 8 samples.

Results

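Skeletal muscle contractile and metabolic genes were followed in mouse brown adipose tissue (BAT) after thoracic aortic constriction (TAC) or sham surgery (Sham). The set held 41 genes of the sarcomere, of calcium handling and of muscle energy supply. They were chosen by name, as all non-control probes whose transcript accession mapped to one of these symbols. The 41 genes had 55 probes, out of 21154 named genes and 55681 probes on the array, and at least 1 probe of every gene passed the filter on dim spots. Where a gene had more than 1 probe, the brightest on average was taken. The animals were male C57BL/6NCrSlc mice, all of them operated on at 11 weeks of age and collected at 13 weeks, with TAC (4 mice) or sham surgery (4 mice) as the only difference in the labels. They were housed at 23 °C under 12 h of light, and carried no engineered allele by the labels. The time after surgery is given as 2 weeks by the source name and the protocol, but as 4 weeks by the description. TAC narrows the aorta and loads the left ventricle with pressure, and each array held the RNA of the BAT of 1 mouse, so the p-values measure the spread between these mice.

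BAT is a fat depot that burns fuel for heat. It lies against the back muscles between the shoulder blades in mice, and brown adipocytes share a precursor with skeletal muscle, but a mature brown adipocyte builds no sarcomere. The sarcomere is the contractile unit of muscle, in which myosin thick filaments pull on actin thin filaments when calcium binds the troponin complex. Fibres come as fast and slow types, and most sarcomere proteins have a fast and a slow form made from separate genes, so that the ratio of the forms reads out the fibre type. Creatine kinase (Ckm), myoglobin (Mb) and muscle phosphorylase (Pygm) serve the energy supply of the fibre.

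Scanner intensities were used for 7 of the arrays (all but Sham replicate 1), and for all 8 a deposited table of the same intensities scaled by array. All levels below, apart from summed levels, are log2 values of that table, in which 0 is the 75th percentile of the array. Sets of 4 values are for replicates 1 to 4 in order. Levels are compared between arrays for 1 probe and never between probes. The signal was well above background at 54.5% to 64.3% of the spots, lowest on TAC replicate 3 and highest on Sham replicate 2. By the scanner files, Sham replicates 2 to 4 lay in the first row of 1 slide and the TAC arrays in its second row. Position and operation therefore cannot be told apart for these arrays, and the position of Sham replicate 1 was not known. Of the 41 genes, 35 were well above background on all 7 scanner arrays. Myl2, Tnni1, Ampd1 and Smpx were not well above background on TAC replicate 3, and Myoz2 and Xirp2 on neither Sham replicate 2 nor TAC replicate 3. The labelled tissue had its markers, since Ucp1, the heat-producing uncoupling protein of brown fat, lay between 8.56 and 9.88 on the 8 arrays.

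Upstream sequence is shown for 5 genes whose levels the results turn on. These are Ckm, the reference of the comparison of profiles, Myh4, the heavy chain of the fastest fibres, Myh2, which was highest on Sham replicate 1, Myh7, the slow heavy chain, and Des, which barely varied. Each line gives the 250 bases before the transcription start in RefSeq of build GRCm38.p6, 5′ to 3′ on the strand of the gene. Capitals mark the motifs searched on both strands, which were CAGCTG (the E-box bound by MyoD), TATAAA, and the MEF2 box and CArG box by their consensus.
Ckm: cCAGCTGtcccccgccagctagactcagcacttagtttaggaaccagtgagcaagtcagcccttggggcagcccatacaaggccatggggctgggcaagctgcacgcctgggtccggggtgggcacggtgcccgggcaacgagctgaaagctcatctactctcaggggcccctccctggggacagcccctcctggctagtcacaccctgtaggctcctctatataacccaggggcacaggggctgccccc
Myh4: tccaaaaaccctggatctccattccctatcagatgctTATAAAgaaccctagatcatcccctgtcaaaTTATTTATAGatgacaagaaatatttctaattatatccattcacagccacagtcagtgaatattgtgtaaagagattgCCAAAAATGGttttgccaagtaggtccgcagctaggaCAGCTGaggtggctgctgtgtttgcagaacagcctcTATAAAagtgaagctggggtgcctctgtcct
Myh2: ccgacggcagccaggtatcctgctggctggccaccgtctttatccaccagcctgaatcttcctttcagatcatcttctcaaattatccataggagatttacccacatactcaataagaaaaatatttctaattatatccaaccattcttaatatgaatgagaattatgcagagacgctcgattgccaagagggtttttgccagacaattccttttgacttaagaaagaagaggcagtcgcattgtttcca
Myh7: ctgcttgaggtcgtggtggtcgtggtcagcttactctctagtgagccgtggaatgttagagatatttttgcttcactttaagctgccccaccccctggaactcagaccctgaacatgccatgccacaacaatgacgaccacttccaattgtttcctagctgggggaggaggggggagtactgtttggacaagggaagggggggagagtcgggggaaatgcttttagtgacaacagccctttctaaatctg
Des: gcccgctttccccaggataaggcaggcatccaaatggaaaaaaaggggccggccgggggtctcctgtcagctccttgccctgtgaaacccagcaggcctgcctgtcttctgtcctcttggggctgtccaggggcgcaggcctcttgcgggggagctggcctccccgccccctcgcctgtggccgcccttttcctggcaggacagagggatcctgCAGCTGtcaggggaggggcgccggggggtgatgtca
The windows lie at chr7:19410844-19411093 on the + strand, chr11:67237562-67237811 (+), chr11:67170777-67171026 (+), chr14:54994627-54994876 (- strand, the first of several listed starts) and chr1:75360042-75360291 (+). Myh4 held CAGCTG at position -67, TATAAA at -213, -179 and -31, a MEF2 box at -182 that overlaps the second TATAAA, and a CArG box at -104. Ckm held CAGCTG at -249 and Des at -36, while these letters were not found in the windows of Myh2 and Myh7. Of the 41 genes, 31 had a window in the reference table. CAGCTG was present in 14 of these 31, among them Acta1, Tnni1 and Pygm, against 12.8% of 27025 promoters of the same length. TATAAA was present in 6 of 31 against 13% of all promoters, the MEF2 box in 7 of 31 against 3.01%, and the CArG box in 3 of 31 (Acta1, Myh4 and Myl3) against 1.4%. Among the 9 fast-fibre and the 9 slow-fibre genes with a window, CAGCTG was present in 4 and 3. These matches are a description of letters, and binding was not measured.

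The muscle genes spread far more between mice than other genes. The range over the 8 arrays had a median of 2.64 on the log2 scale for the 41 genes, against 0.62 for all 33364 probes tested, and 32 genes had a range of at least 2, against 6.16% of all probes. Ckm, which regenerates ATP from phosphocreatine, was at 1.78, -0.032, 1.75 and 0.85 on the Sham arrays and 2.67, 2.23, 0.31 and 2.78 on the TAC arrays. Its lowest arrays came from both groups, Sham replicate 2 and TAC replicate 3, so that the groups overlapped, and its highest array was 7.01-fold above its lowest. These same arrays, Sham replicate 2 and TAC replicate 3, were the 2 lowest for 33 of the 41 genes, against 1.79% of all probes. Sham replicate 2 was the lowest array for 23 genes and TAC replicate 3 for 15, and TAC replicate 4 was the highest for 25 (8.05% of all probes) and TAC replicate 1 for 10 (17.3%). TAC replicate 1 stood apart over the whole array, as it was the lowest array for 33.1% of all probes and had the smallest of limma's array weights (0.277), but it was the lowest for 0 of the 41 genes. The genes outside this order were Actn3, Mylpf, Myl3, Tpm2, Casq2, Mybpc2, Cacng1 and Des. In bulk tissue, fewer muscle fibres in a piece of BAT and less RNA per fibre cannot be told apart.

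**Figure D1:**
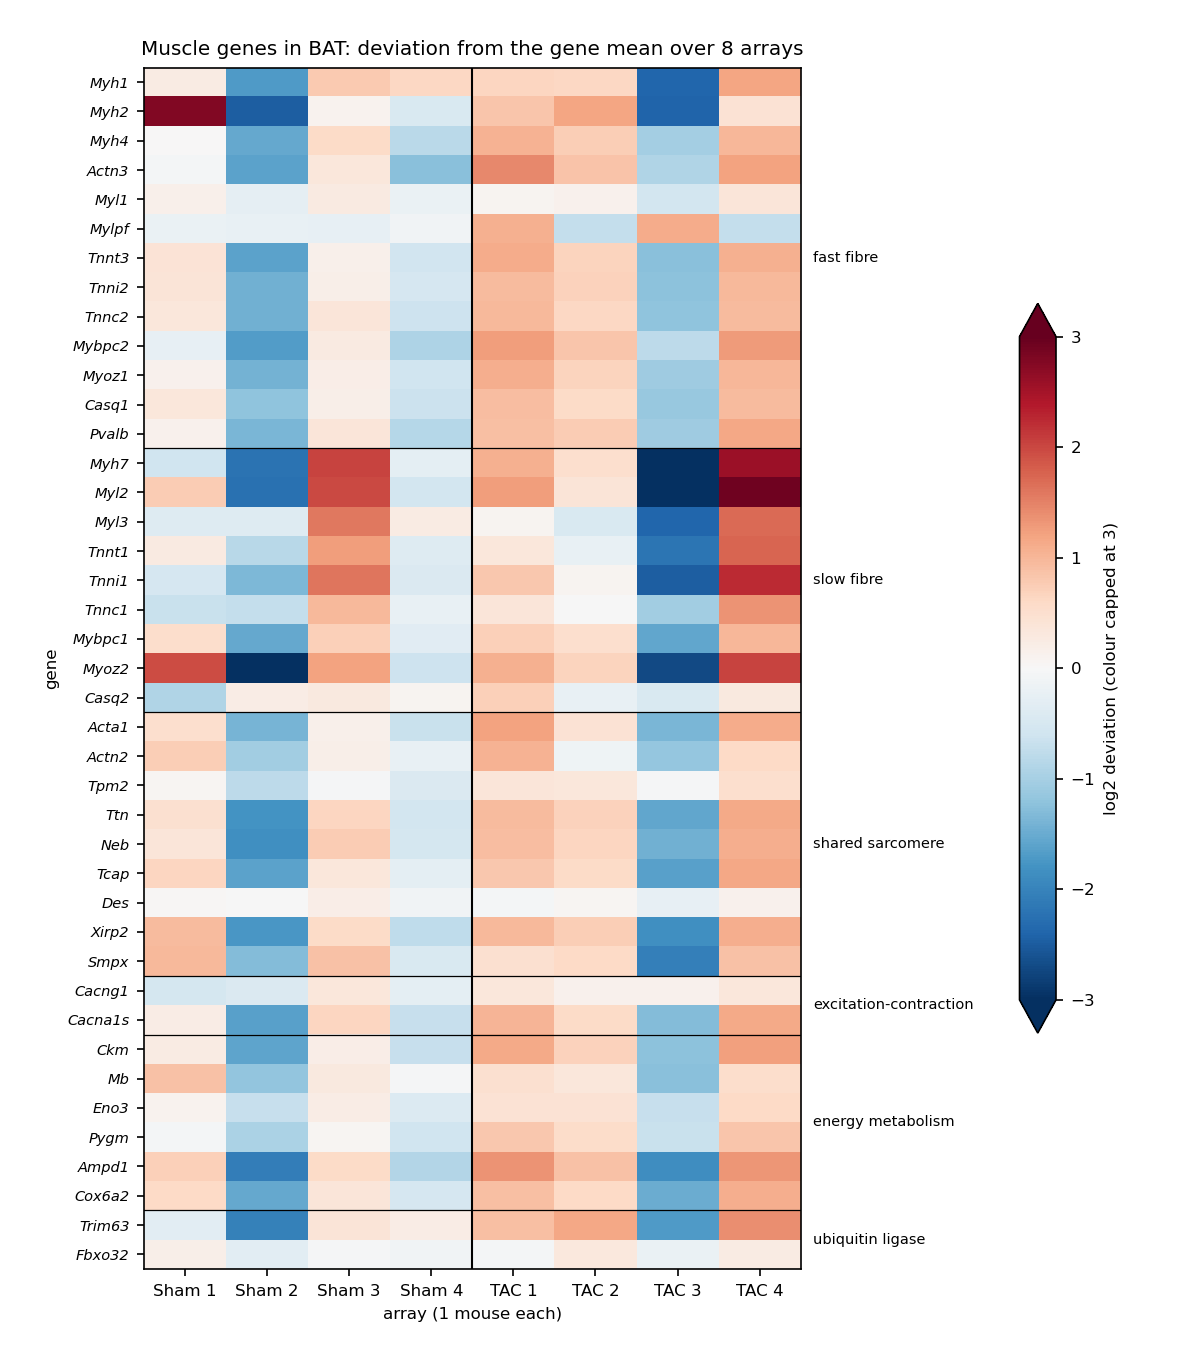
Deviation of each of the 41 muscle genes from its own mean over the 8 arrays (log2, colour capped at 3), with genes in rows by role and arrays in columns, Sham left and TAC right of the line. Sham replicate 2 and TAC replicate 3 are blue in most rows, and Sham replicate 3 and TAC replicate 4 are the reddest in most slow-fibre rows.

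The fast-fibre list held 13 genes, and most of them traced the order of Ckm. Myh4, the type IIb myosin heavy chain, was at 5.41, 3.86, 5.98 and 4.59 on the Sham arrays and 6.44, 6.13, 4.37 and 6.40 on the TAC arrays. Tnnt3, Tnni2 and Tnnc2 are the fast forms of the 3 troponin subunits, which bind tropomyosin, inhibit the thin filament and sense calcium. Tnnt3 was at 4.12, 2.10, 3.86 and 3.13 on the Sham arrays and 4.81, 4.36, 2.45 and 4.78 on the TAC arrays. Tnni2 was at 5.82, 3.98, 5.62 and 4.93 on the Sham arrays and 6.39, 6.11, 4.20 and 6.40 on the TAC arrays. The third subunit, Tnnc2, was at 5.66, 3.87, 5.68 and 4.68 on the Sham arrays and 6.28, 5.93, 4.11 and 6.27 on the TAC arrays. In all of these, Sham replicate 2 and TAC replicate 3 were the lowest arrays, and the other TAC arrays lay above every Sham array. The same held for Myoz1, a Z-disc protein of fast fibres, at 1.49, -0.044, 1.56 and 0.77 on the Sham arrays and 2.46, 2.04, 0.31 and 2.37 on the TAC arrays, and for Casq1, which stores calcium in the sarcoplasmic reticulum, at -0.85, -2.40, -1.03 and -1.84 on the Sham arrays and -0.26, -0.61, -2.33 and -0.25 on the TAC arrays. Pvalb, the calcium buffer parvalbumin, ranged from 2.80 (Sham replicate 2) to 5.32 (TAC replicate 4) in the same order of low arrays.

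Some fast-fibre genes departed from this order. Myh2, the type IIa heavy chain of oxidative fast fibres, was at 3.96, -1.29, 1.30 and 0.73 on the Sham arrays and 2.02, 2.37, -1.21 and 1.62 on the TAC arrays. Its level on Sham replicate 1 exceeded that on every other array, and its highest array was 38-fold above its lowest. Myh1, the type IIx heavy chain, was at 1.38, -0.58, 1.90 and 1.75 on the Sham arrays and 1.76, 1.75, -1.27 and 2.30 on the TAC arrays, and TAC replicate 3 stood alone below the rest of its group. Myl1, an essential light chain of fast fibres, was at 5.86, 5.44, 5.97 and 5.51 on the Sham arrays and 5.78, 5.84, 5.16 and 6.06 on the TAC arrays, a range of only 0.90. Mylpf, the fast regulatory light chain, was at -2.22, -2.26, -2.27 and -2.13 on the Sham arrays and -0.96, -2.75, -0.92 and -2.75 on the TAC arrays, highest on TAC replicates 1 and 3. The second Mylpf probe was also highest on TAC replicate 3 and correlated with the first at r = 0.555 over the 8 arrays, whereas the 12 other further probes that passed the filter correlated with their gene's main probe at r of at least 0.878.

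The slow-fibre list held 9 genes, with wider swings and another order of the arrays at the top. Myh7, the slow myosin heavy chain that ventricular muscle shares, was at -0.56, -2.18, 2.06 and -0.26 on the Sham arrays and 1.1, 0.53, -3.04 and 2.61 on the TAC arrays. Its highest arrays were TAC replicate 4 and Sham replicate 3, 1 of each group, and its range was 50-fold. Myl2, the slow regulatory light chain, was at 0.46, -2.53, 1.68 and -0.84 on the Sham arrays and 0.96, 0.098, -4.84 and 2.63 on the TAC arrays, and its range of 7.47 was the widest of the 41 genes, with the lowest value not well above background. Myl3, the slow essential light chain, was at 0.33, 0.32, 2.28 and 0.95 on the Sham arrays and 0.79, 0.24, -1.68 and 2.42 on the TAC arrays. Both light chains were highest on TAC replicate 4 and next on Sham replicate 3, as Myh7 was.

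The slow troponins shared that order. Tnnt1 was at 1.67, 0.56, 2.65 and 1.0 on the Sham arrays and 1.73, 1.16, -0.80 and 3.13 on the TAC arrays. Tnni1 was at -2.86, -3.72, -0.76 and -2.80 on the Sham arrays and -1.54, -2.27, -4.84 and -0.13 on the TAC arrays. Tnnc1, the form of slow and cardiac muscle, was at -3.04, -3.07, -1.38 and -2.59 on the Sham arrays and -1.98, -2.37, -3.41 and -1.02 on the TAC arrays. All 3 were highest on TAC replicate 4, second on Sham replicate 3 and lowest on TAC replicate 3. Mybpc1, the slow myosin-binding protein C, was at 0.88, -1.20, 1.05 and -0.0014 on the Sham arrays and 1.05, 0.84, -1.21 and 1.35 on the TAC arrays, in that order too, with TAC replicate 1 next to Sham replicate 3. Myoz2, the slow Z-disc partner of Myoz1, was at -1.40, -6.97, -2.15 and -3.97 on the Sham arrays and -2.28, -2.69, -6.06 and -1.33 on the TAC arrays, with Sham replicate 1 near the top. Casq2, the calsequestrin of slow and cardiac muscle, was at -2.98, -1.86, -1.77 and -1.99 on the Sham arrays and -1.37, -2.29, -2.54 and -1.79 on the TAC arrays, and had its lowest array in Sham replicate 1.

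**Figure D2:**
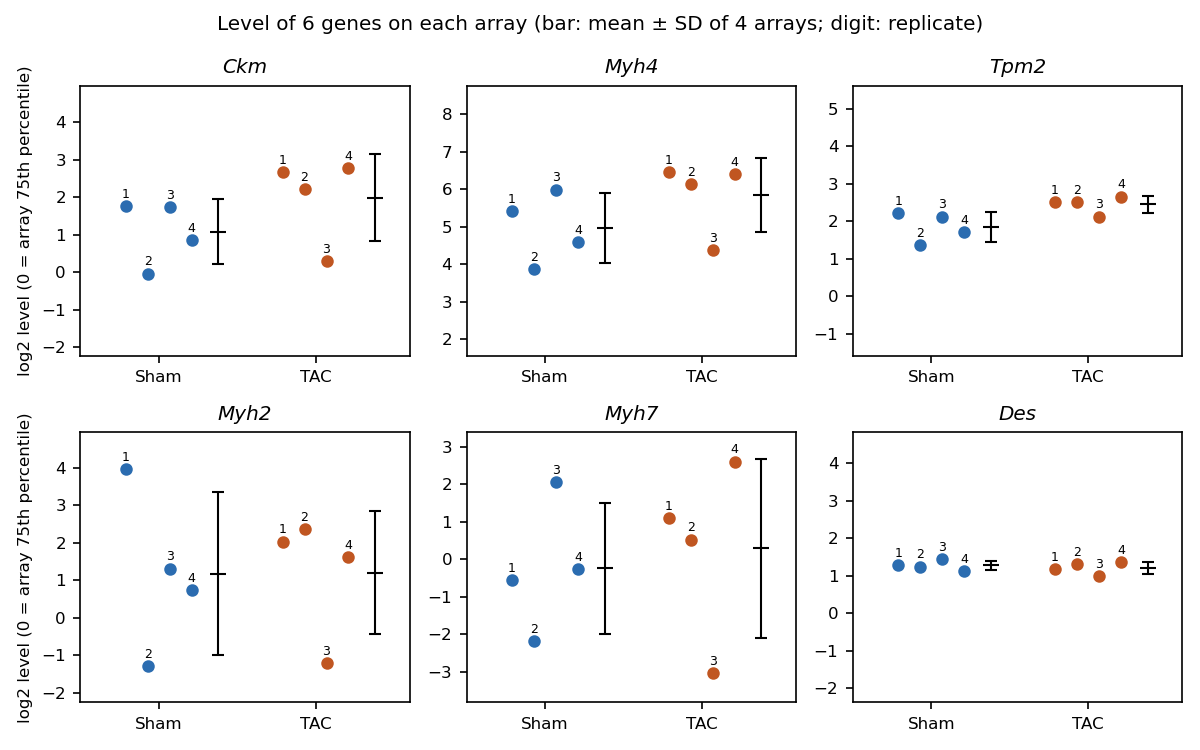
Level of Ckm, Myh4, Tpm2, Myh2, Myh7 and Des on each array (log2, 0 is the 75th percentile of the array), points labelled by replicate, with the mean and SD of the 4 arrays of a group, on axes of equal span. Sham replicate 2 and TAC replicate 3 are low for Ckm, Myh4, Myh2 and Myh7, whereas Des lies between 1.0 and 1.44 on all arrays.

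The genes shared by fibre types had the same 2 lowest arrays as most fast ones, apart from Des and Tpm2. TAC replicates 1, 2 and 4 lay above all Sham arrays in 2 of the 9 shared genes, against 9 of the 13 fast-fibre genes. Acta1, skeletal alpha-actin, ranged from 2.62 (Sham replicate 2) to 5.24 (TAC replicate 1), Ttn, the giant spring titin, from -0.27 (Sham replicate 2) to 2.67 (TAC replicate 4), and Neb, the thin-filament ruler nebulin, from -1.87 (Sham replicate 2) to 1.06 (TAC replicate 4). Tcap, which caps titin at the Z-disc, ranged from 2.42 (TAC replicate 3) to 5.20 (TAC replicate 4) and Actn2, the main Z-disc actinin of muscle, from -1.84 (TAC replicate 3) to 0.36 (TAC replicate 1). Xirp2, an actin-binding protein of the Xin family, was at -2.28, -4.97, -2.64 and -3.99 on the Sham arrays and -2.25, -2.48, -5.06 and -2.15 on the TAC arrays. Smpx, a small muscle protein, was at -1.66, -3.94, -1.75 and -3.10 on the Sham arrays and -2.16, -2.02, -4.68 and -1.75 on the TAC arrays, highest on Sham replicate 1. All 7 had Sham replicate 2 and TAC replicate 3 as their lowest arrays. Des, the intermediate filament desmin, was at 1.28, 1.24, 1.44 and 1.13 on the Sham arrays and 1.17, 1.30, 1.0 and 1.36 on the TAC arrays, the smallest range of the 41 genes (0.45). Smooth muscle also makes desmin, and its part in the level of Des was not tested.

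Genes of the energy supply were low on the same 2 arrays without exception. Mb was at 3.29, 1.23, 2.72 and 2.37 on the Sham arrays and 2.89, 2.75, 1.16 and 2.93 on the TAC arrays, highest on Sham replicate 1. Eno3, the muscle enolase of glycolysis, was at 3.89, 3.09, 4.01 and 3.37 on the Sham arrays and 4.23, 4.22, 3.11 and 4.39 on the TAC arrays. Ampd1, muscle AMP deaminase, was at -1.37, -4.16, -1.51 and -2.97 on the Sham arrays and -0.73, -1.19, -3.94 and -0.74 on the TAC arrays, with a range of 10.8-fold between Sham replicate 2 and TAC replicate 1. Cox6a2, a cytochrome oxidase subunit of heart and skeletal muscle, ranged from 0.76 (Sham replicate 2) to 3.40 (TAC replicate 4). In the calcium channel that triggers contraction, the pore subunit Cacna1s ranged from -0.40 (Sham replicate 2) to 2.38 (TAC replicate 4), whereas the gamma subunit Cacng1 varied by only 0.88. Trim63 and Fbxo32 encode the ubiquitin ligases MuRF1 and atrogin-1, which mark muscle proteins for breakdown. Trim63 was at -1.64, -3.34, -0.93 and -1.1 on the Sham arrays and -0.42, -0.15, -3.02 and 0.077 on the TAC arrays. Fbxo32 was at -1.25, -1.76, -1.48 and -1.54 on the Sham arrays and -1.49, -1.11, -1.64 and -1.19 on the TAC arrays, a range of 0.65 against 3.41 for Trim63.

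The genes were then compared with Ckm over the 8 arrays. The Pearson correlation of the other 40 with Ckm had a median of 0.932, against -0.11 over 33363 probes, and 22 of the 40 reached r of at least 0.9, against 0.351% of all probes. In the exact permutation test over all pairings of the arrays, none passed an adjusted p of 0.05 (0 of 40 genes, 0% of all probes), and the smallest adjusted p was 0.0788. With 8 arrays this test can give no p below 2.48e-05. After adjustment over 33363 probes, a pass therefore needs many probes at or near that floor, and its absence says little about single genes. Without Sham replicate 2 and TAC replicate 3, the arrays farthest from the median of Ckm, the median r of the genes was 0.877. Then 19 of 40 reached 0.9, against 293 of all 33363 probes. The closest was Myoz1 with r = 0.998 (exact permutation p = 9.92e-05, adjusted p = 0.0946, Spearman rho = 0.952 with p = 0.00114, and r = 0.993 without the farthest arrays). Myh7 gave r = 0.860 (exact permutation p = 0.00754, adjusted p = 0.861, Spearman rho = 0.786 with p = 0.0279, and r = 0.612 without the farthest arrays), Myh2 gave r = 0.770 (exact permutation p = 0.0266, adjusted p = 0.899, Spearman rho = 0.762 with p = 0.0368, and r = 0.251 without the farthest arrays) and Mylpf gave r = -0.228 (exact permutation p = 0.582, adjusted p = 0.914, Spearman rho = -0.407 with p = 0.315, and r = 0.095 without the farthest arrays). Fast-fibre genes kept a median r of 0.978 without the farthest arrays, and slow-fibre genes had a median of 0.612, between 0.195 (Myl3) and 0.878 (Mybpc1). Over all 820 pairs of the 41 genes, the median r was 0.857. All values come from the same 8 arrays and share their scaling.

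Of the genes outside the set, the 5 whose profile was most like that of Ckm were Atp2a1, the fast calcium pump, Stxbp4, Trim54, Hhatl and Klhl31. Atp2a1 was at 1.11, -0.35, 1.0 and 0.37 on the Sham arrays and 1.85, 1.46, -0.16 and 1.96 on the TAC arrays, with r = 0.999 (exact permutation p = 2.48e-05, adjusted p = 0.0788, Spearman rho = 1.0 with p = 4.96e-05, and r = 0.998 without the farthest arrays). This p is the smallest that the pairings of 8 arrays can give. Stxbp4, a syntaxin-binding protein, had r = 0.996 (exact permutation p = 7.44e-05, adjusted p = 0.0946, Spearman rho = 0.976 with p = 0.000397, and r = 0.993 without the farthest arrays). Trim54, a relative of Trim63, had r = 0.992, Hhatl 0.991 and Klhl31 0.990. The arrays Sham replicate 2 and TAC replicate 3 were the lowest for all 5, which follows from picking them for likeness to Ckm over the same arrays.

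The balance of fast against slow genes differed more within each group than between the groups. The mean deviation of the fast genes minus that of the slow genes was 0.29, 0.025, -1.02 and -0.25 on the Sham arrays and 0.23, 0.45, 1.20 and -0.93 on the TAC arrays, with an SD of 0.740 within groups and a TAC minus Sham difference of 0.48. The slow genes were relatively high on Sham replicate 3 and TAC replicate 4, and relatively low on TAC replicate 3. On TAC replicate 3 the fast genes were at -1.07 and the slow genes at -2.27, but 3 of the slow genes (Myl2, Tnni1 and Myoz2) were not well above background there, and Myoz2 not on Sham replicate 2 either. With the 6 slow genes that were well above background on all 7 scanner arrays, a choice made after the values were seen, the slow mean on TAC replicate 3 was -1.79 and the difference fell from 1.20 to 0.72. On Sham replicate 2 the difference moved from 0.024 to -0.47. Over these genes the SD within groups was 0.62 and the TAC minus Sham difference 0.54, and Sham replicate 3 and TAC replicate 4 were still the lowest arrays. The 7 scanner arrays alone gave 0.060, -0.98, -0.21, 0.27, 0.49, 1.25 and -0.88, for Sham replicates 2 to 4 and TAC replicates 1 to 4 in order. No test was run on these scores, since they are means over genes that share their arrays.

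**Figure D3:**
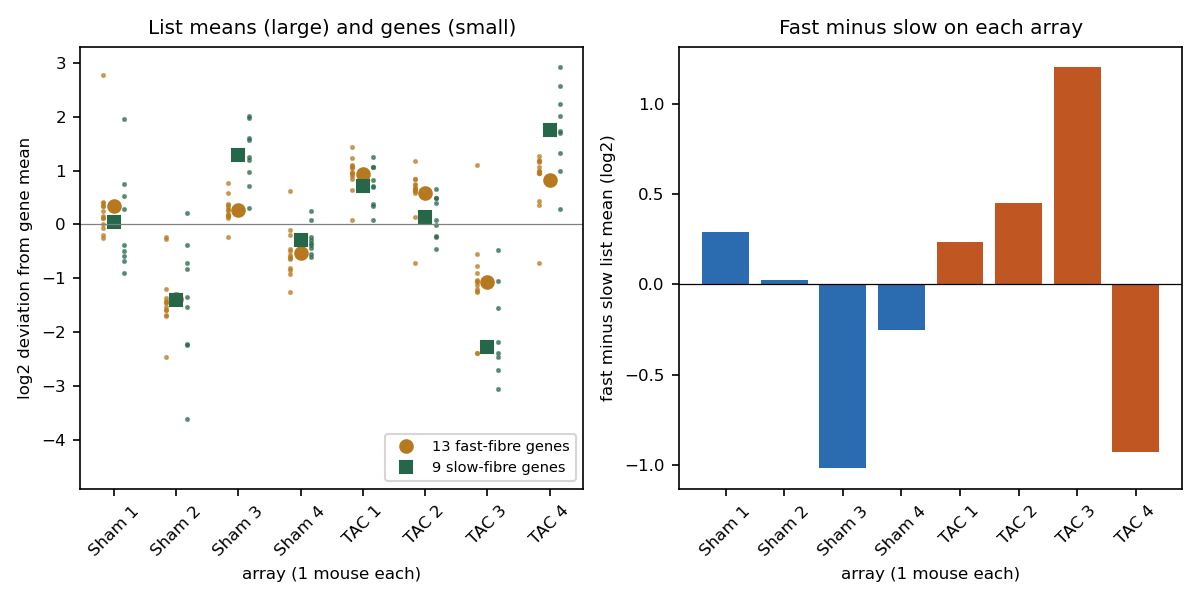
Left, mean deviation of the 13 fast-fibre (circles) and 9 slow-fibre genes (squares) on each array, with single genes as small points (log2). Right, the fast mean minus the slow mean on each array, from -1.02 on Sham replicate 3 to 1.20 on TAC replicate 3, Sham in blue and TAC in orange, with 3 slow genes not well above background on TAC replicate 3.

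Pairs of fast and slow forms were read gene by gene. The difference of the 2 deviations was highest on TAC replicate 3 in 6 of 9 pairs, in 2 of which the slow form (Tnni1 or Myl2) was not well above background on that array. It was lowest on Sham replicate 3 or TAC replicate 4 in 5 of 9. Of the 6 pairs well above background on all 7 scanner arrays, 4 were highest on TAC replicate 3 and 3 lowest on Sham replicate 3 or TAC replicate 4. For Myh4 and Myh7 it was 0.60, 0.68, -1.44 and -0.51 on the Sham arrays and -0.021, 0.23, 2.04 and -1.57 on the TAC arrays. For Tnni2 and Tnni1 it was 0.89, -0.098, -1.42 and -0.067 on the Sham arrays and 0.14, 0.59, 1.24 and -1.27 on the TAC arrays. The Tnnt3 and Tnnt1 pair gave 0.14, -0.77, -1.11 and -0.19 on the Sham arrays and 0.76, 0.89, 0.93 and -0.67 on the TAC arrays. Sham replicate 3 and TAC replicate 4 were the lowest arrays of the first 2 pairs, and Sham replicates 3 and 2 those of the troponin T pair. Myl1 against Myl3 ran from -1.36 (TAC replicate 4) to 1.84 (TAC replicate 3), a range carried by Myl3. Mylpf against Myl2 ran from -3.64 to 5.65 on the same arrays, but the upper end is set by Myl2 at background, and the 2 Mylpf probes correlated at only r = 0.555. The calsequestrins, Tnnc2 against Tnnc1, and Myoz1 against Myoz2 had other orders, with Sham replicates 1 and 2 at the ends. Mybpc2 against Mybpc1 was -0.79, -0.13, -0.44 and -0.58 on the Sham arrays and 0.54, 0.35, 0.78 and 0.27 on the TAC arrays, the one pair in which all TAC arrays lay above all Sham arrays, with a TAC minus Sham difference of 0.97. With the second Mybpc1 probe the groups overlapped, at 0.32 on Sham replicate 3 against 0.22 on TAC replicates 1 and 4. This pair was singled out after its values were seen and was not tested. Between the fast heavy chains, Myh4 against Myh2 was lowest on Sham replicate 1 at -2.77 and ran from -0.45 to 1.37 elsewhere.

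**Figure D4:**
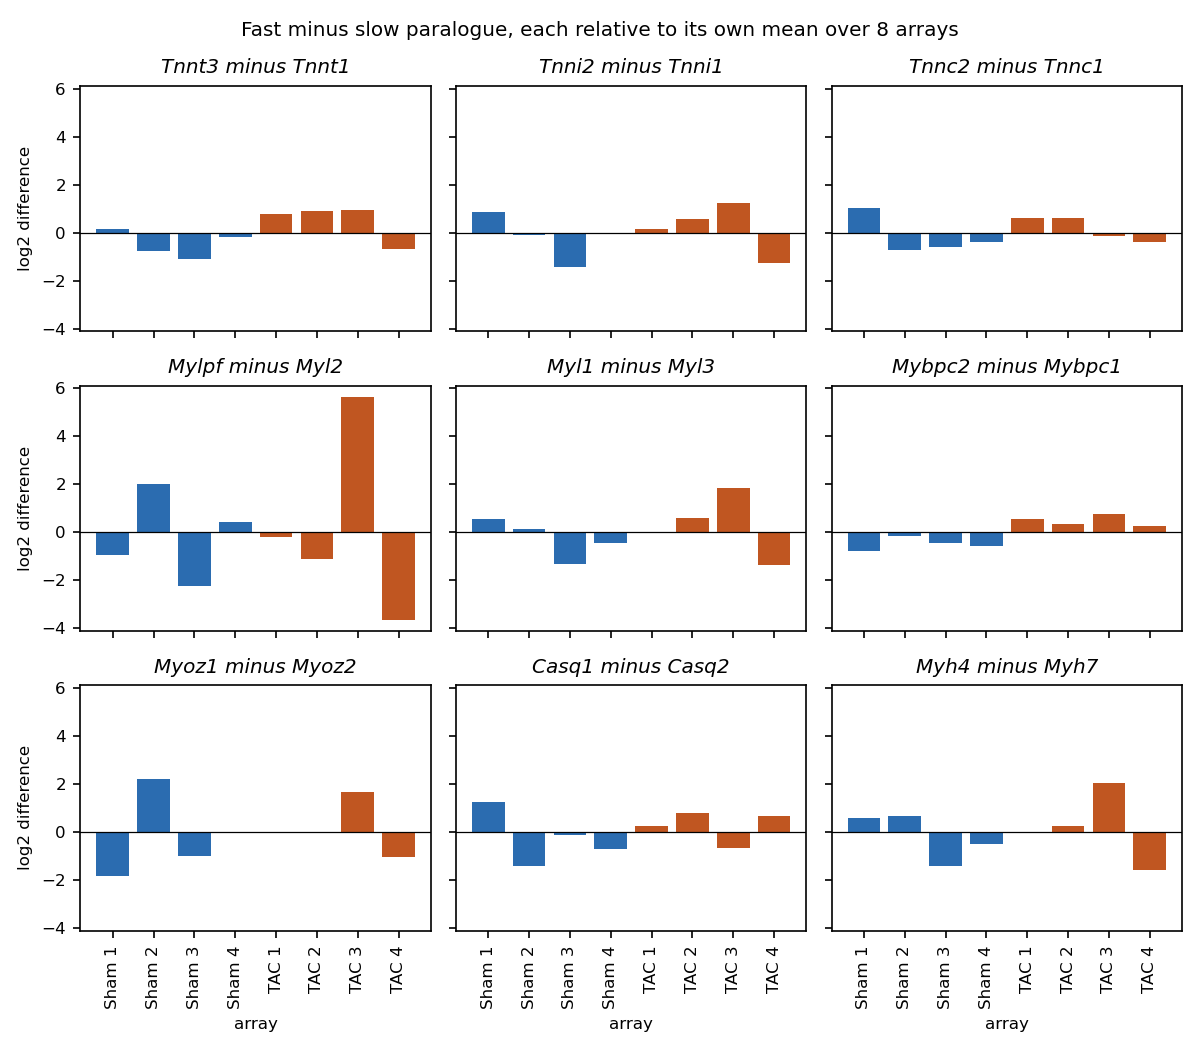
For 9 pairs of paralogous genes, the fast form minus the slow form on each array, each gene taken relative to its own mean over the 8 arrays (log2), Sham in blue and TAC in orange. In 6 panels the highest bar is that of TAC replicate 3, where Tnni1, Myl2 and Myoz2 were not well above background, and Mybpc2 minus Mybpc1 is below 0 on all Sham arrays and above 0 on all TAC arrays.

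TAC and Sham were then compared with limma on the 7 scanner arrays, with Benjamini-Hochberg adjustment over 33364 probes. The value was higher after TAC for 37 of the 41 genes and lower for 4 (Myl3, Tnnt1, Casq2 and Des), and 0 of 41 passed an adjusted p of 0.05, where 0% of all probes passed. The median log2 difference was 0.86, and 0.53 in the table of all 8 arrays, against -0.032 and -0.039 for all probes. At an unadjusted p under 0.05, 1 gene was higher (4.38% of all probes) and 0 were lower (8.43%). This gene was Tpm2, beta-tropomyosin of the thin filament, at 2.22, 1.36, 2.13 and 1.71 on the Sham arrays and 2.52, 2.51, 2.13 and 2.66 on the TAC arrays, with a log2 difference of 0.73 ± 0.21 SE (limma, adjusted p = 0.273, exact permutation p over 8 arrays = 0.0571). The groups overlapped, with TAC replicate 3 below Sham replicate 1, and the second Tpm2 probe gave 0.70. No gene had groups that did not overlap over the 8 arrays, against 3.53% of all probes for higher and 6.29% for lower levels after TAC.

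The next smallest p-values belonged to 2 fast-fibre genes, an energy gene and a channel subunit. Mybpc2, the fast myosin-binding protein C, was at 0.75, -0.67, 1.28 and 0.084 on the Sham arrays and 2.25, 1.85, 0.23 and 2.29 on the TAC arrays and differed by 1.44 ± 0.63 SE (limma, adjusted p = 0.400). Actn3, the actinin of fast fibres, was at 1.19, -0.34, 1.58 and -0.0087 on the Sham arrays and 2.69, 2.10, 0.35 and 2.46 on the TAC arrays and differed by 1.50 ± 0.68 SE (adjusted p = 0.411). Pygm, which breaks down glycogen, was at 1.81, 0.91, 1.93 and 1.26 on the Sham arrays and 2.67, 2.41, 1.19 and 2.70 on the TAC arrays and differed by 0.89 ± 0.42 SE (adjusted p = 0.432). In all of these TAC replicate 3 lay among the Sham arrays. Cacng1 was at -3.56, -3.46, -2.69 and -3.31 on the Sham arrays and -2.68, -2.89, -2.90 and -2.68 on the TAC arrays, with the smallest TAC spread of these genes, and differed by 0.38 ± 0.19 SE (adjusted p = 0.453). For Ckm the difference was 1.16 ± 0.68 SE (adjusted p = 0.505), for Myh4 1.04 ± 0.66 SE (adjusted p = 0.530) and for Myh7 0.45 ± 1.47 SE (adjusted p = 0.915). The lower values were -0.73 ± 0.94 SE for Myl3, -0.11 ± 0.27 SE for Casq2, -0.086 ± 0.93 SE for Tnnt1 and -0.046 ± 0.13 SE for Des. Over the 41 genes the adjusted p ran from 0.273 to 0.976, and the exact two-sided permutation p on 8 arrays from 0.0571 to 1, where 4 against 4 arrays can give no p below 0.0286.

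**Figure D5:**
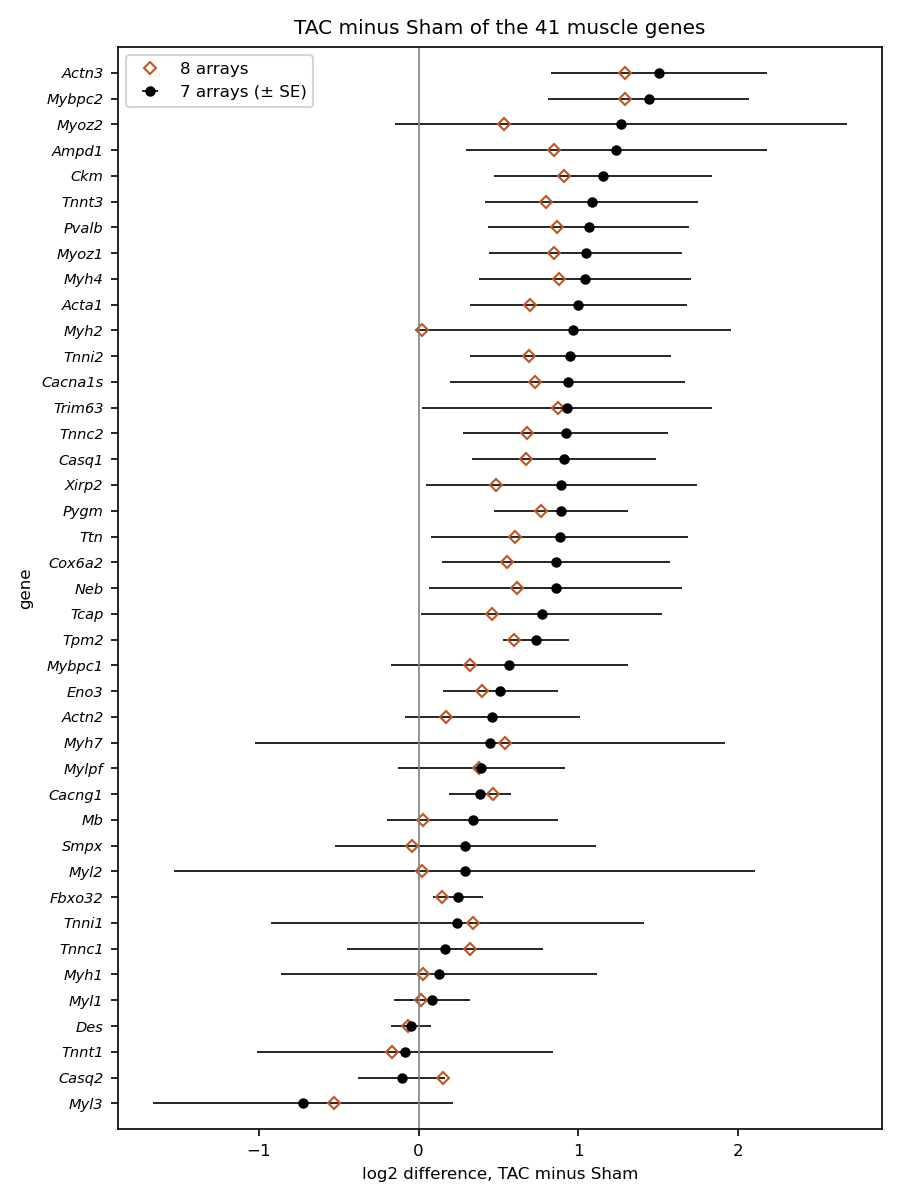
TAC minus Sham difference of the 41 muscle genes (log2), from limma on 7 scanner arrays with the standard error (black) and from the table of 8 arrays (open diamonds), in order of the 7-array value. From Actn3 at 1.5 to Myl3 at -0.73, 37 genes lie above 0 and no gene passed an adjusted p of 0.05.

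By role, the 13 fast-fibre genes were all higher after TAC on the 7 scanner arrays, with a median of 0.97. The 9 slow-fibre genes were higher in 6 and lower in 3, with a median of 0.24. In the table of 8 arrays the medians were 0.69 and 0.32. The fast median minus the slow median was thus 0.73 on the 7 arrays but 0.37 in the table, and ran from 0.32 to 1.15 with single arrays left out. No gene of either list was called, and the gap between the lists was not tested. In 17 of the 41 genes the TAC replicates 1, 2 and 4 lay above all 4 Sham arrays (5% of all probes), among them 9 of the 13 fast-fibre and 0 of the 9 slow-fibre genes. This ordering was picked after the values were seen and was not tested. Without TAC replicate 3, 22 genes had an unadjusted p under 0.05, all higher (4.23% of all probes), among them 10 fast-fibre and 0 slow-fibre genes, and the median difference was 1.43. The smallest adjusted p was then 0.322, so that 0 genes were called. Without Sham replicate 3, 6 genes had such a p (2.68%). In the table of 8 arrays 3 genes did (4.65%), which were Tpm2, Mybpc2 and Cacng1, and without TAC replicate 3 there were 18 (4.11%). Without Sham replicate 2 the median fell to 0.22 on the 7 arrays and 0.14 in the table.

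A further list of 50 muscle genes was read the same way, of which 45 had a probe that passed the filter. None was called (0 higher, 0 lower), 34 were higher and 11 lower after TAC, and the median difference was 0.34. The smallest p-values were those of Fbp2, the fructose bisphosphatase of muscle (log2 difference -1.15, limma, adjusted p = 0.197), Xirp1 (0.37, adjusted p = 0.266) and Pfkm (0.21, adjusted p = 0.420). Fbp2 was at 0.073, 0.76, 1.02 and 0.54 on the Sham arrays and -0.97, -0.19, -0.068 and -0.35 on the TAC arrays, all TAC arrays below all Sham arrays (1 of 45 genes lower, against 6.29% of all probes). The groups were also apart for Xirp1 and Unc45b, with all TAC arrays above all Sham arrays (2 of 45 genes higher, against 3.53% of all probes). On average the list was at 0.28, -0.81, 0.46 and -0.25 on the Sham arrays and 0.34, 0.25, -0.86 and 0.60 on the TAC arrays, so that its lowest arrays were those of the 41 genes. Of the 45 genes 17 had an r with Ckm of at least 0.9, such as Ryr1, the calcium release channel, and Pgam2, a muscle glycolytic enzyme. Another 10 had a range under 1, among them Pfkm, Ak1, Smyd1 and Unc45b. Synpo2l, an actin-binding protein, was at 5.56, 5.83, 5.93 and 6.03 on the Sham arrays and 5.07, 5.90, 6.08 and 5.80 on the TAC arrays. Sln, which inhibits the calcium pump, had a range of 8.16, from -7.16 on Sham replicate 2, where it was not well above background, to 1.0 on Sham replicate 3.

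The myogenic regulators gave a partial reading. Myod1, Myog and Myf5 did not pass the filter on dim spots, and Myf6, the factor of mature fibres, was at -3.01, -4.32, -2.31 and -3.74 on the Sham arrays and -3.10, -2.70, -4.51 and -2.66 on the TAC arrays. Pax7, a marker of satellite cells, varied by 0.68. Embryonic myosin Myh3 did not pass the filter. The probe of Myh8, the perinatal heavy chain, was at 6.12, 4.33, 6.40 and 5.21 on the Sham arrays and 6.87, 6.64, 4.81 and 6.84 on the TAC arrays and correlated with Ckm at r = 0.987. Myh1, Myh2, Myh4 and Myh8 are close copies of each other, and the probe sequences were not used here, so that shared signal between them was not tested.

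Markers of other cells were read on the same arrays. Of 9 cardiac genes 3 passed the filter (Myh6, Tnni3 and Nppa), none of them above -2.90 on any array, and their summed level was 0.231 to 0.260 on the Sham arrays and 0.187 to 0.264 on the TAC arrays. The 13 brown adipocyte genes, all of which passed, had a summed level of 5615 to 6807 on the Sham and 4552 to 5983 on the TAC arrays, and a mean deviation of 0.021, 0.081, 0.40 and 0.21 on the Sham arrays and -0.76, 0.052, 0.22 and -0.22 on the TAC arrays. This list was lowest on TAC replicate 1, where the 41 genes were high. Of its 13 genes 11 were lower after TAC, against 18633 of all 33364 probes, and 0 were called. At an unadjusted p under 0.05, 2 of the 13 were lower, against 8.43% of all probes (Ucp1 at -0.61 and Plin1 at -0.35, limma, adjusted p = 0.336 and 0.384). Another count of 2 (Ucp1 and Elovl3) had all TAC arrays below all Sham arrays (6.29% of all probes). The 10 macrophage genes had a summed level of 49.98 to 54.9 on the Sham and 42.2 to 84.1 on the TAC arrays, highest on TAC replicate 1. Of 8 smooth muscle genes 7 passed, with a summed level of 50.2 to 61.6 on the Sham and 50.8 to 89.7 on the TAC arrays, highest on TAC replicate 3, where the skeletal genes were low. Of 6 erythroid genes 5 passed, with a summed level of 437.0 to 1128 on the Sham and 530.1 to 870.4 on the TAC arrays. No marker that passed had a linear intensity of 0 on any array. Their part in the levels of the muscle genes was not tested.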

How the data were processed

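Per the labels, 100 ng of total RNA of each BAT was labelled with Cy3 and hybridized to an Agilent array, and the authors read the spots with Agilent Feature Extraction 10.7.1.1, as the submitters' processing notes name it. The authors deposited for 7 arrays the background-subtracted intensity of each spot, on a linear scale, and for 8 arrays a table of intensity per probe, which by its values is the same signal over each array's 75th percentile. For Sham replicate 1 only the table was used.

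Outlier and control spots were left out, intensities were taken to log2 after scaling to the 75th percentile of each array, and spots of a probe were averaged. The filter on dim spots asked for signal well above background on 3 or more of the 7 arrays and for values on 2 or more per group, which left 33364 probes. Groups were compared with limma 3.58.1 in R 4.3.3, tested on simulated data, with Benjamini-Hochberg adjustment. Symbols came from RefSeq of GRCm38.p6, which named 94.1% of the probes with a RefSeq accession. The number of arrays limits the precision.

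The 41 genes, the 14 gene lists and the tests were chosen with earlier results of these data known. Values are given in full for Ckm, the paralogue pairs, the 5 genes with the smallest p and the genes with a lone array. Also named by rule are the 5 most like Ckm and the 3 further muscle genes with the smallest p. Other genes of the further lists, such as Synpo2l, Sln and Myh8, were named as examples under no fixed rule. The alternatives were normexp (offset 50), quantile normalization, median centring, no filter, the filter on every array, an intensity trend, outlier spots kept, the table of 8 or of the same 7 arrays, the methods' t-test, array weights, the mean of all probes, the replicate number as a block, and single arrays left out. Each of the 7 scanner arrays was left out in turn, but only Sham replicate 2, TAC replicate 1 and TAC replicate 3 from the table of 8.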

Additional observations from a re-analysis of the deposited data

Results flagged for a closer look

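In each group of 4 arrays, the gap between an extreme array and its nearest neighbour was set against the range of the group. Of 88 groups looked at, for the 41 genes and for 3 means over them, 10 had a gap above the critical value of Dixon's test, where chance picks out about 1 in 20, and all 10 were TAC replicate 3 as the lowest. Because the genes share their arrays, these are not 10 separate events. Among the fast-fibre genes, Myh1 was at -1.27 there against 1.75 to 2.30 for its group mates (gap 0.846 of the range), and Myh4 was at 4.37 against 6.13 to 6.44 (gap 0.848). Tnni2 was at 4.20 against 6.11 to 6.40 (gap 0.871), and Tnnc2 at 4.11 against 5.93 to 6.28 (gap 0.840). Among the genes of energy supply, Mb was at 1.16 against 2.75 to 2.93 (gap 0.894), Eno3 at 3.11 against 4.22 to 4.39 (gap 0.863) and Ampd1 at -3.94 against -1.19 to -0.73 (gap 0.858). Trim63 was at -3.02 against -0.42 to 0.077 (gap 0.841), Xirp2 at -5.06 against -2.48 to -2.15 (gap 0.885) and Smpx at -4.68 against -2.16 to -1.75 (gap 0.860). Ampd1, Xirp2 and Smpx were not well above background on this array. No slow-fibre gene was among the 10.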

How the results depend on the processing

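No gene of the 41 passed an adjusted p of 0.05 in limma under any of the 24 alternatives that gave a test or a value, and the smallest adjusted p was 0.166. The median log2 difference stayed above 0 in all of them, and moved by less than the SD between arrays of the mean over the genes (0.974). This SD is larger than the median difference itself (0.86), so that a fall to 0 would also lie within it. The median difference ran from 0.14 to 1.43 when single arrays were left out. These were each of the 7 scanner arrays, and Sham replicate 2, TAC replicate 1 or TAC replicate 3 of the table of 8. The number of genes higher after TAC, which was 37 of 41, ran from 25 to 41 with these arrays left out. The count at an unadjusted p under 0.05, which was 1, ran from 1 to 22 in the same way, with 22 without TAC replicate 3. It was 4 with an intensity trend, 4 with normexp, 3 in the table of 8 arrays and 2 with the filter on every array, which kept 35 of the genes. Arrays of the same number were not paired, since the correlations of deviations for numbers 1 to 4 were 0.27, 0.020, 0.056 and 0.020. With the replicate block this count was 0 on the scanner values and 1 in the table, and the median difference was 0.65 and 0.53. The block on the scanner values used replicates 2 to 4 of each group and so left out TAC replicate 1. Leaving out that array without a block also gave a median of 0.65, so this value does not show an effect of the block. Of 978 differences of single genes under the alternatives, 918 kept their sign, and 23 genes kept it throughout, Ckm, Myh4 and Tpm2 among them. With arrays left out, the differences ran from -0.15 to 0.88 for Actn2, -0.31 to 0.34 for Casq2, -0.12 to 0.043 for Des, -0.36 to 0.76 for Mb, -0.14 to 1.14 for Mybpc1 and -0.68 to 0.93 for Myh1. They ran from -0.80 to 1.77 for Myh2, -0.59 to 1.65 for Myh7, -0.072 to 0.27 for Myl1, -0.72 to 1.81 for Myl2, -1.39 to 0.18 for Myl3 and -0.58 to 2.37 for Myoz2. They ran from -0.48 to 0.97 for Smpx, -0.00055 to 1.39 for Tcap, -0.23 to 0.73 for Tnnc1, -0.45 to 1.22 for Tnni1, -0.70 to 0.62 for Tnnt1 and -0.014 to 1.59 for Xirp2. Array weights gave 0.0075 for Des, -0.064 for Myh1 and 0.049 for Tnnt1, and the mean of all probes 0.011 for Tnnt1. The table of 8 arrays gave 0.15 for Casq2 and -0.040 for Smpx, with and without the block. The block on the scanner values, which lacked TAC replicate 1, gave -0.076 for Myh1 and -0.12 for Myl2. Leaving out TAC replicate 1 from the table, and keeping only slow-fibre genes well above background, were chosen after seeing the data. The cause of these moves was not tested.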
